A study of Mus musculus with 4 samples.

Results

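Interferon-stimulated genes, together with the interferon receptors and the IRF and STAT factors that act on them, were followed in cultured mouse Kupffer cells (macrophages that reside in liver sinusoids) after exposure to maresin 1. Members were 50 listed genes, found as array probes whose RefSeq accession resolved to a listed gene. A probe was named for 47 of the 50, among 45616 genes or identifiers on the array, and Mx1, Mx2 and Tgtp1 are not analysed here. The maresin 1 group (MaR1) was cultured with maresin 1 at 200 nM, a product of docosahexaenoic acid made by macrophages and counted among the pro-resolving lipids. The vehicle group (Veh) received ethanol. Both groups were Kupffer cells from male C57BL/6 mice 8 weeks of age, carried no genetic change named in the labels, and were kept for 24 h in medium with 0.1% serum after plating in 10% serum. Each group had 2 arrays. Whether replicates were separate animals or cultures is not given in the labels, so p-values measure only how these arrays differ, and that spread may be technical.

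Interferons alpha and beta, the type I interferons, bind a receptor built from IFNAR1 and IFNAR2 and act through a complex that holds STAT2 and IRF9 and binds the interferon-stimulated response element (ISRE). Interferon gamma binds a receptor built from IFNGR1 and IFNGR2 and acts through Janus kinases on genes with a gamma-activated sequence (GAS), and through induced factors such as IRF1. In macrophages the type I arm is known for antiviral effectors of the IFIT, OAS and MX families. The gamma arm is known for the guanylate-binding proteins (GBP) and immunity-related GTPases (IRG), which attack the vacuoles of intracellular pathogens, although many of these genes answer to both arms.

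Of the 9 measured gamma-type members, the Gbp and Irg genes, 6 rose in MaR1 cultures. All 9 had both MaR1 arrays above both Veh arrays, as did 32.7% of all genes tested, with log2 differences of 0.23 to 0.64, or 1.17- to 1.55-fold. The Ifit and Oas genes lay around 0, with 1 of 8 higher and a range of -0.18 to 0.30. Over all 47 members 13 rose, 1 fell and 33 were not called by limma at an adjusted p under 0.05. Of all 24067 genes tested, 11.2% were called higher and 12.7% lower. The median log2 difference was 0.12 over members, 0.33 over gamma-type members and -0.06 over type I-type members, against -0.02 over all genes tested. In bulk RNA a lower value from fewer cells of a type and one from less RNA per cell cannot be told apart.

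All members were bright, so the genes in the same range of level belong beside these counts. All 47 were well above background on all 4 arrays, with mean log2 levels of 1.66 to 8.23 relative to the 75th percentile of their array. Among the 6623 genes with a mean level in that range, the median difference was 0.06, with 13.5% called higher and 7.02% lower. These genes shared the range and were not matched to the members in level. Quantile normalization, which forces all arrays to the same distribution, lowered the members' median to 0.03 and their calls to 6 higher and 2 lower. The same setting moved the median of the genes in that range to -0.01, with 8.91% higher and 10.4% lower. The 9 gamma-type differences stayed positive there, between 0.12 and 0.54, and 6 of the 8 type I-type differences were negative, within a range of -0.29 to 0.17. Leaving out 1 array removed most member calls, and also lowered the number of calls over all genes tested. The members' median difference then lay between 0.09 and 0.15. None of the 13 kept its call in all 4 of these settings. All 9 gamma-type members kept a positive difference in each of the 12 other settings, those without an array included.

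**Figure D1:**
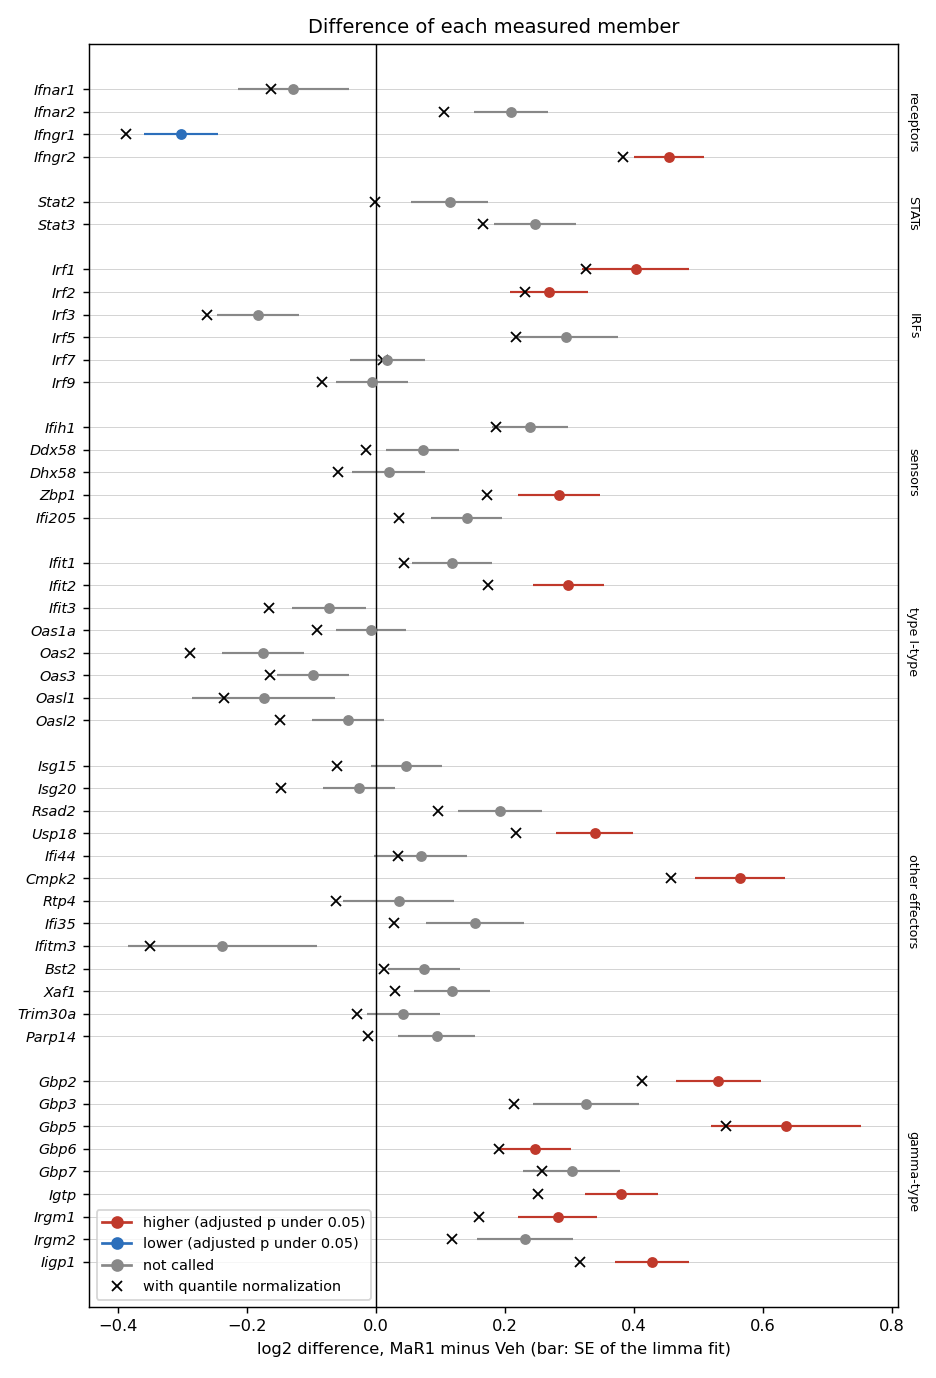
Log2 difference between MaR1 and Veh (x axis, MaR1 minus Veh) for each of the 47 measured members (y axis, by role), with bars for the standard error of the limma fit, red for higher, blue for lower, grey for not called, and crosses for quantile normalization. The 9 gamma-type genes at the bottom lie to the right of 0 under both scalings, between 0.23 and 0.64 as reported, while 6 of the 8 type I-type genes lie to the left of it.

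The arrays were alike in quality. The 75th percentile of the signal was 946 and 847 on MaR1 arrays and 961 and 988 on Veh arrays, between 54.4% and 55.6% of probes were well above background, and 0 spots were saturated. All arrays were on 1 slide, MaR1 at positions 3 and 4 and Veh at positions 1 and 2, so that position and treatment cannot be told apart. All 12 listed Kupffer cell markers passed the filter on dim probes. Their summed linear signal, relative to the 75th percentile, was 1237 and 1222 on MaR1 arrays and 1305 and 1255 on Veh arrays, with Csf1r called higher, Adgre1 called lower, and Clec4f at a difference of 0.04 (adjusted p 0.693).

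Some markers of other interferon-making or interferon-responsive cells differed between the groups, and their part in the members' values was not tested. Of all genes tested 11.2% were called higher and 12.7% lower, and these shares belong beside the counts below. The summed level of 7 dendritic cell markers was 50.1 and 51.7 on MaR1 arrays and 20.3 and 20.8 on Veh arrays, with 6 of 7 higher. That of 11 T and NK cell markers was 56.8 and 63.7 on MaR1 arrays and 33.5 and 32.3 on Veh arrays, but 2 of these rose (Gzma and Cd8a) while 4 fell (Cd3g, Cd4, Ncr1 and Nkg7). Differences were negative for 8 of these 11 markers, with a median of -0.22, so the higher sum does not describe most of them. The 7 B cell markers summed to 4.55 and 4.27 on MaR1 arrays and 2.47 and 2.72 on Veh arrays, with 4 higher. The 9 plasmacytoid dendritic cell markers, among them the member Bst2, summed to 190 and 195 on MaR1 arrays and 187 and 182 on Veh arrays, with 3 higher. Every marker tested was well above background on at least 1 array, and the dendritic cell marker Xcr1 did not pass the filter on dim probes.

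Among the gamma-type members, Gbp5 and Gbp2 had the largest differences. Gbp5, whose product promotes inflammasome assembly, had log2 levels of 4.81 and 5.08 on MaR1 arrays and 4.24 and 4.38 on Veh arrays, a difference of 0.64 ± 0.12 (SE, n = 2 arrays each, limma adjusted p 0.0287). Gbp2, which acts on vacuoles of parasites and bacteria, had 6.82 and 6.73 on MaR1 arrays and 6.21 and 6.28 on Veh arrays, a difference of 0.53 ± 0.07 (adjusted p 0.0127). In both genes the lower MaR1 array exceeded the higher Veh array by more than the gap between arrays of a group. Both MaR1 arrays lay above both Veh arrays in 32.7% of all genes tested, and the share that also exceeded the gap was not counted.

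Gbp6 had 2.95 and 2.97 on MaR1 arrays and 2.69 and 2.73 on Veh arrays, a difference of 0.25 ± 0.06 (adjusted p 0.0453). Gbp3 had 5.56 and 5.73 on MaR1 arrays and 5.29 and 5.35 on Veh arrays, and its difference of 0.33 missed the threshold (adjusted p 0.0567). Gbp7 had 2.74 and 2.62 on MaR1 arrays and 2.33 and 2.42 on Veh arrays, with a difference of 0.30 (adjusted p 0.0535). In these 3 genes too both MaR1 arrays lay above both Veh arrays, as in 32.7% of all genes tested. Gbp5, Gbp7, Gbp3 and Gbp2 are neighbours in a cluster on chromosome 3. Near-identical sequence within the GBP family means that a probe may read more than its own transcript, which was not tested.

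The IRG proteins include effectors that load onto pathogen vacuoles (Iigp1) and regulators that keep the effectors off the cell's own membranes (Irgm1, Irgm2 and Igtp). Iigp1 had log2 levels of 6.70 and 6.68 on MaR1 arrays and 6.23 and 6.29 on Veh arrays, a difference of 0.43 ± 0.06 (adjusted p 0.0150). Igtp had 6.49 and 6.45 on MaR1 arrays and 6.11 and 6.07 on Veh arrays, a difference of 0.38 ± 0.06 (adjusted p 0.0185). For each of these genes the MaR1 arrays lay within 0.1 of each other and above the Veh arrays, the latter as in 32.7% of all genes tested.

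Irgm1 had 5.38 and 5.43 on MaR1 arrays and 5.09 and 5.16 on Veh arrays, a difference of 0.28 ± 0.06 (adjusted p 0.0415), and its other 2 probes gave 0.27 and 0.32. Irgm2 had 5.23 and 5.37 on MaR1 arrays and 5.04 and 5.09 on Veh arrays, with a difference of 0.23 (adjusted p 0.0933). Both genes were higher on each MaR1 array than on each Veh array, as were 32.7% of all genes tested. Over the 9 gamma-type genes the median difference was between 0.32 and 0.38 in each of the 4 pairings of a MaR1 array with a Veh array, against -0.02 to -0.01 for all genes tested. The count of calls was less stable than the direction: 4 of 9 were called with quantile normalization, 1 with no filter on dim probes, and 0 or 1 without any 1 array.

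**Figure D2:**
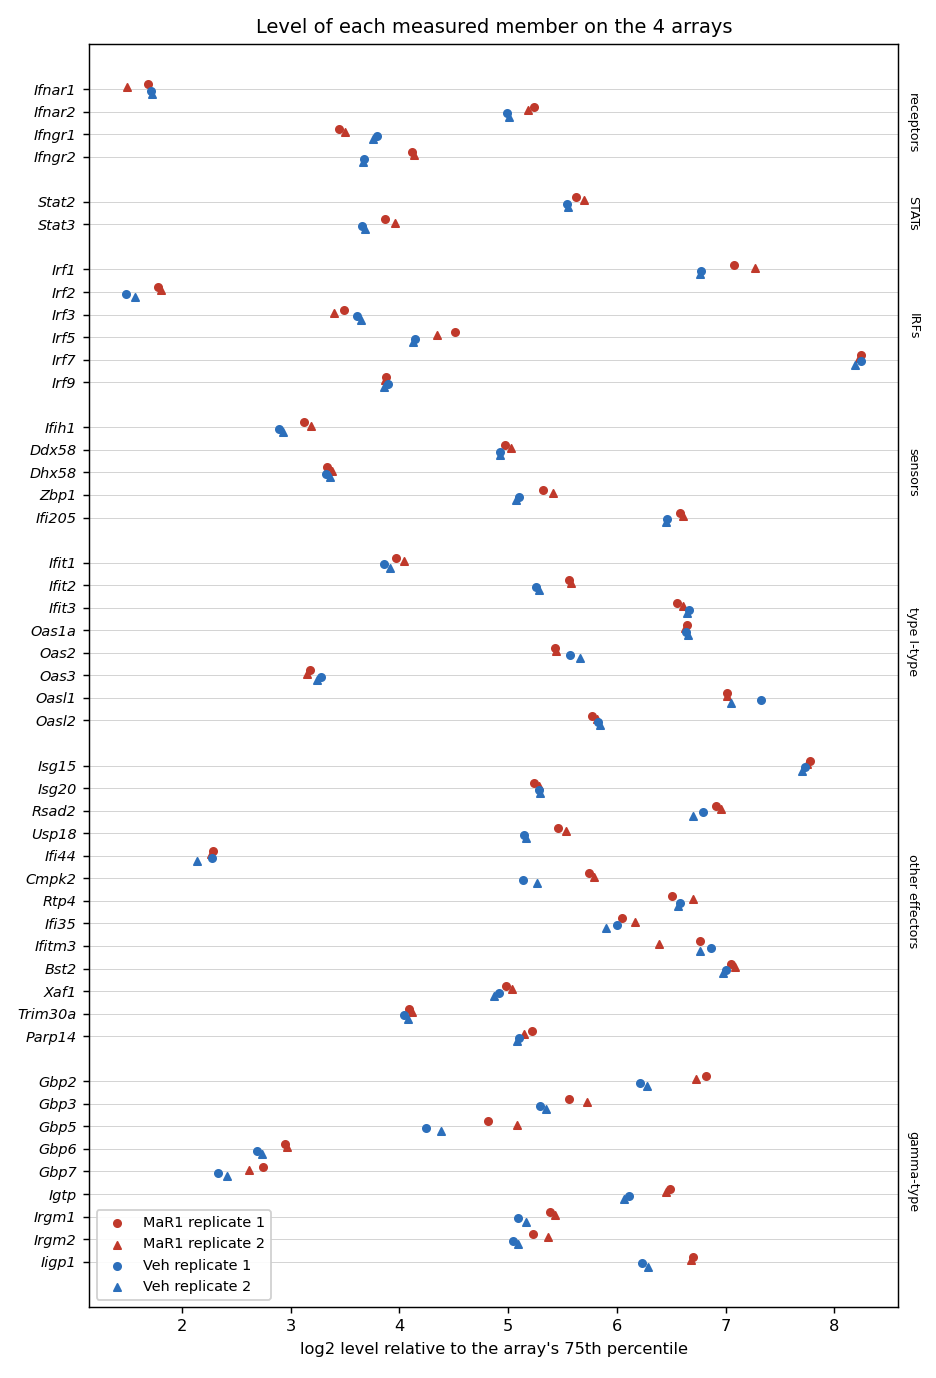
Log2 level relative to the 75th percentile of the array (x axis) of each measured member (y axis, by role) on the 4 arrays, MaR1 in red and Veh in blue, circles for replicate 1 and triangles for replicate 2. Every gamma-type gene has both red points to the right of both blue points, and Isg15, Irf7 and the Oas genes have all 4 points close together or red to the left; levels of different genes come from different probes and have no order.

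Promoter windows from RefSeq (assembly GRCm38.p6, 250 bases before to 50 bases after the annotated start) were used for 40 of the 50 listed genes to show which letters known to bind these factors lie near each start. The ISRE core was searched as GAAA, any 2 bases and GAAA again (TTTC, any 2 bases and TTTC on the other strand) and the GAS core as TTCNNNGAA, which reads the same on both strands. The ISRE core was present for 22 of the 40 genes (55.0%), against 3.99% of all 27025 genes with a window. The GAS core was present for 15 of the 40 (37.5%), against 9.55% of all genes. An ISRE core match overlapped a GAS core match in 24 of 32851 windows, those of Bst2 and Ifitm3 among them. A match describes letters and is not evidence of binding. The cores searched were strict, so the absence of a match is not evidence that a site is absent.

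The windows of Gbp2 and Gbp5 are printed because these genes had the largest differences of the gamma-type members. They lie at chr3:142620413-142620712 on the plus strand for Gbp2 and at chr3:142496684-142496983 on the plus strand for Gbp5, with ISRE and GAS core matches in capitals.
Gbp2: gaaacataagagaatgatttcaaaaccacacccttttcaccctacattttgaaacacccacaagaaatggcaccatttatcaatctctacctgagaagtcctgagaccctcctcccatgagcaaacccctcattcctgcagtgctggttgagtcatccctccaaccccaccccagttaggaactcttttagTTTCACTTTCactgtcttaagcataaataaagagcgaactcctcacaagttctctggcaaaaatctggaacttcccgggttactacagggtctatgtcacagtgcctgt
Gbp5: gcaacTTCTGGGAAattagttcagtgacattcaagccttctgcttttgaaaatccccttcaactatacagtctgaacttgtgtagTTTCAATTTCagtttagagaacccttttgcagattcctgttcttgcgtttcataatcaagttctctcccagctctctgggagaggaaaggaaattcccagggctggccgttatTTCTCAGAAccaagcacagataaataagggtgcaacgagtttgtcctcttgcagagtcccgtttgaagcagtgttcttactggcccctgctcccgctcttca
The ISRE core of Gbp2 lay at bases -59 to -50 from the start. Gbp5 had an ISRE core at -165 to -156 and GAS cores at -245 to -237 and at -52 to -44.

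Igtp, Irgm2 and the unmeasured member Tgtp1 shared an arrangement of a GAS core, 2 other bases and an ISRE core, noticed after the windows had been seen. It was found in 5 of 32851 windows (0.0152%), and the other windows belonged to Gm12185 and Tgtp2, all on chromosome 11. The 36-base stretches lie at chr11:58199503-58199538 (plus strand) for Igtp, chr11:58214894-58214929 (plus) for Irgm2 and chr11:48992307-48992342 (minus) for Tgtp1, with both cores in capitals.
Igtp: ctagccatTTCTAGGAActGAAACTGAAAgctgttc
Irgm2: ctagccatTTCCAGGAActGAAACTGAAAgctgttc
Tgtp1: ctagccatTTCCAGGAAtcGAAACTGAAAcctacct
The pair lay at -45 to -25 in Igtp, -75 to -55 in Irgm2 and -88 to -68 in Tgtp1. These genes belong to 1 family, so the 3 stretches are not independent of each other.

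**Figure D3:**
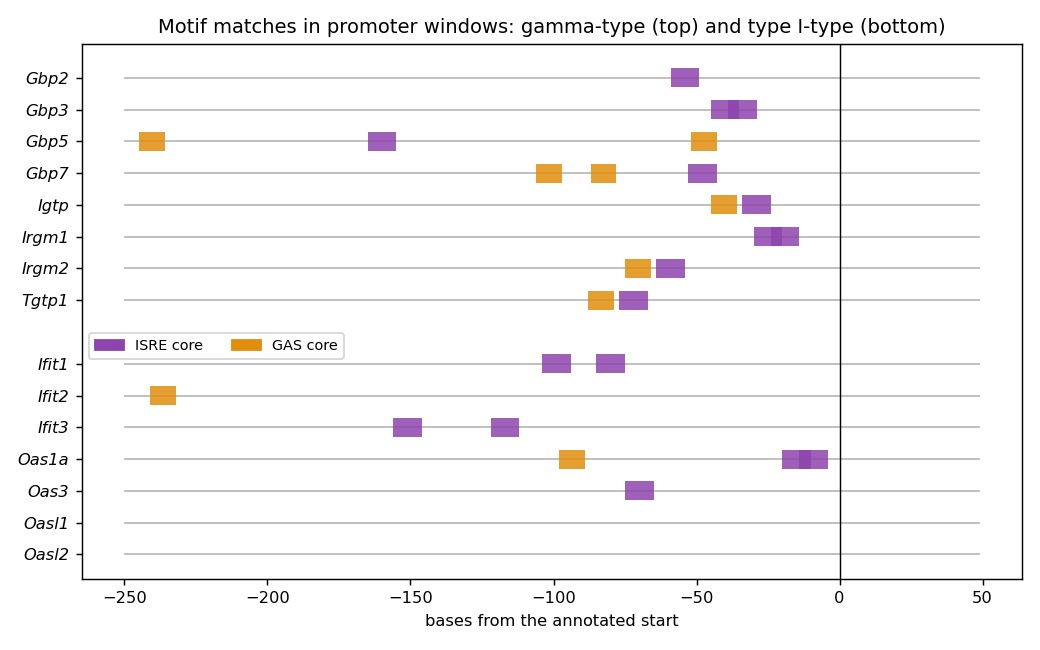
Position of ISRE core matches (purple) and GAS core matches (orange) in bases from the annotated start (x axis) for the 8 gamma-type genes (top) and 7 type I-type genes (bottom) with a promoter window, drawn as a grey line. All 8 gamma-type genes have an ISRE core and 5 have a GAS core. Of the 7 type I-type genes, 4 have an ISRE core and 2 a GAS core. The absence of a match is not evidence that a site is absent.

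By call, the members with a window were as follows. Of the 9 members called higher that had a window, 5 had an ISRE core (55.6%) and 5 a GAS core (55.6%). Of the 29 members tested and not called, 16 had an ISRE core (55.2%) and 9 a GAS core (31.0%). The difference between these shares was not tested.

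The type I-type members are Ifit genes, whose products bind viral RNA, and genes of the oligoadenylate synthetase family, some of which activate RNase L. Their differences lay on both sides of 0. Ifit2 alone was called: it had log2 levels of 5.56 and 5.58 on MaR1 arrays and 5.26 and 5.28 on Veh arrays, a difference of 0.30 ± 0.05 (adjusted p 0.0287). The members Ifit1 and Ifit3, also on chromosome 19, were not called. Ifit1bl1 and Ifit3b, outside the member list, were called lower, as were 12.7% of all genes tested. Ifit1 had 3.97 and 4.04 on MaR1 arrays and 3.86 and 3.91 on Veh arrays, a difference of 0.12 (adjusted p 0.233). Ifit3 had 6.55 and 6.61 on MaR1 arrays and 6.66 and 6.64 on Veh arrays, a difference of -0.07 (adjusted p 0.393).
The window of Ifit3, at chr19:34583279-34583578 on the plus strand, is printed because it holds 2 ISRE cores beside a gene that was not called.
Ifit3: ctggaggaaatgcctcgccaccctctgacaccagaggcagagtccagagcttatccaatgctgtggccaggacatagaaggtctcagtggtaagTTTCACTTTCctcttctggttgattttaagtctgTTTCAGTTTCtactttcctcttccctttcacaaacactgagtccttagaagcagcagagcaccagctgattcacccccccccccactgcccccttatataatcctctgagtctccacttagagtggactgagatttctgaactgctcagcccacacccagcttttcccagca

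The members of the oligoadenylate synthetase family had no call, and each measured member had a difference under 0, which did not hold for every measured gene of the family outside the list. Oas2 had 5.43 and 5.44 on MaR1 arrays and 5.56 and 5.66 on Veh arrays, a difference of -0.18 (adjusted p 0.118), which became a call of lower with quantile normalization (-0.29, adjusted p 0.0481). Oas3 had a difference of -0.10 (adjusted p 0.261), Oas1a of -0.01 (0.924) and Oasl2 of -0.04 (0.596). Oasl1 had 7.01 and 7.01 on MaR1 arrays and 7.33 and 7.05 on Veh arrays, a difference of -0.17 (adjusted p 0.300), set by the first Veh array. A dimmer probe of Oasl1 gave 0.24 instead, with an adjusted p of 0.0494 over all probes, so the direction of this gene depends on its probe. Counted by non-overlap, 2 of the 8 type I-type members lay higher and 5 lower, against 32.7% higher and 36.8% lower of all genes tested.

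The other antiviral effectors and modifiers had 2 of 13 members called, both higher. Of all genes tested 11.2% were called higher, and of those in the members' range of level 13.5%. Cmpk2, a mitochondrial nucleotide kinase, had 5.75 and 5.79 on MaR1 arrays and 5.14 and 5.26 on Veh arrays, a difference of 0.56 ± 0.07 (adjusted p 0.0125). Usp18, the protease that removes ISG15 from proteins and dampens signalling at IFNAR2, had 5.46 and 5.53 on MaR1 arrays and 5.15 and 5.16 on Veh arrays, a difference of 0.34 ± 0.06 (adjusted p 0.0256). Both had MaR1 arrays above the Veh arrays, as did 32.7% of all genes tested.

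Cmpk2 and the neighbouring Rsad2, which encodes viperin, lie next to each other on chromosome 12 but were not called together. Rsad2 had 6.91 and 6.96 on MaR1 arrays and 6.79 and 6.70 on Veh arrays, a difference of 0.19 (adjusted p 0.104), while its dimmer probe gave 0.49 (adjusted p 0.0119 over all probes). Isg15, the ubiquitin-like modifier, had 7.77 and 7.75 on MaR1 arrays and 7.73 and 7.70 on Veh arrays, a difference of 0.05 (adjusted p 0.564) that turned to -0.06 with quantile normalization. Its arrays spanned less than 0.1.
Its window, at chr4:156200769-156201068 on the minus strand, holds 3 overlapping ISRE cores, which appear as 1 run of capitals.
Isg15: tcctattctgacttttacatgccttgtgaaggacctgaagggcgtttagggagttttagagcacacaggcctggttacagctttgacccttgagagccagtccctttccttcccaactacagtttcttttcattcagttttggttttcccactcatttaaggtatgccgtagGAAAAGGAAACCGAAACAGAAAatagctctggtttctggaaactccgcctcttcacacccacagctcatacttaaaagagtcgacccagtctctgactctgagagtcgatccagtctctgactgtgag

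The remaining 9 effectors were not called. Positive differences were 0.15 for Ifi35, 0.12 for Xaf1, a promoter of cell death, 0.09 for the ADP-ribosyltransferase gene Parp14, 0.07 for Bst2, which encodes the viral tether tetherin, 0.07 for Ifi44, 0.04 for Trim30a and 0.03 for Rtp4. The adjusted p of these 7 lay between 0.210 and 0.787. Isg20, an exonuclease gene, had -0.03 (adjusted p 0.746). Ifitm3, which restricts virus entry, had the widest spread of any member: 6.77 and 6.38 on MaR1 arrays and 6.86 and 6.76 on Veh arrays, a difference of -0.24 ± 0.15 (adjusted p 0.288). Its difference was -0.05 without the second MaR1 array and -0.43 without the first.

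The 2 chains of the interferon gamma receptor moved in opposite directions. Ifngr2, the signalling chain whose level is known to limit the response in some cells, had 4.11 and 4.14 on MaR1 arrays and 3.68 and 3.66 on Veh arrays, a difference of 0.45 ± 0.05 (adjusted p 0.0118). Ifngr1, the ligand-binding chain, had 3.45 and 3.50 on MaR1 arrays and 3.79 and 3.76 on Veh arrays, a difference of -0.30 ± 0.06 (adjusted p 0.0313), and was the only member called lower. In each gene the groups were apart by several times the gap within a group. Of all genes tested, 32.7% had groups that did not overlap with MaR1 higher and 36.8% with MaR1 lower. The shares called were 11.2% higher and 12.7% lower. Both directions held without any 1 array, but Ifngr1 lost its call in each of these 4 settings and Ifngr2 in 3.

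The type I receptor chains were not called. Ifnar2 had 5.24 and 5.18 on MaR1 arrays and 4.99 and 5.01 on Veh arrays, a difference of 0.21 (adjusted p 0.0664). Ifnar1 had 1.69 and 1.50 on MaR1 arrays and 1.72 and 1.73 on Veh arrays, a difference of -0.13 (adjusted p 0.323), but its 2 dimmer probes gave 0.25 and 0.37, of which 0.37 passed the threshold (adjusted p 0.0192 over all probes). No direction can be given for Ifnar1 from these probes.

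The transcription factors gave 2 calls, both for IRFs and both higher, as were 11.2% of all genes tested. Irf1, the interferon-induced activator of gamma-type genes, had 7.08 and 7.27 on MaR1 arrays and 6.77 and 6.77 on Veh arrays, a difference of 0.40 ± 0.08 (adjusted p 0.0370), and 0.61 at its dimmer probe. Irf2, which competes with IRF1 for the same sites, had 1.78 and 1.81 on MaR1 arrays and 1.49 and 1.56 on Veh arrays, a difference of 0.27 ± 0.06 (adjusted p 0.0448). Activator and competitor both had MaR1 arrays above the Veh arrays, as did 32.7% of all genes tested. Both lost their call with quantile normalization (adjusted p 0.0688 for Irf1 and 0.0578 for Irf2).
Irf1 had a further window, at chr11:53770223-53770522, with no match of either core. The window printed, at chr11:53769764-53770063 on the plus strand, holds 1 GAS core, at -90 to -82, and no ISRE core match.
Irf1: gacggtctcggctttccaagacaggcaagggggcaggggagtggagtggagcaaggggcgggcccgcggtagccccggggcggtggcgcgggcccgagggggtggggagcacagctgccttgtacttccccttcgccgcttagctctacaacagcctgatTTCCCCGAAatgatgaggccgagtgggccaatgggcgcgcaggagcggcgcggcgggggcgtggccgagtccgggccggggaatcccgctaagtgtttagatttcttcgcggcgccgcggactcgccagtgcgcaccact

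The other factors were not called. Irf5, a driver of inflammatory cytokine genes, had a difference of 0.30 (adjusted p 0.0660), and Stat3, which carries interleukin signals, had 0.25 (0.0596). Stat2 had 0.11 (0.229) and Irf3, the factor activated by nucleic acid sensing, had -0.18 (0.110). Irf9, the DNA-binding part of the type I complex, had -0.01 (0.943). Irf7, the amplifier of interferon alpha production, had 8.24 and 8.23 on MaR1 arrays and 8.25 and 8.19 on Veh arrays, a difference of 0.02 (0.842) with overlapping groups, while its dimmer probe gave 0.26 (adjusted p 0.0423 over all probes).

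Of the 5 nucleic acid sensor genes, Zbp1, which detects Z-form nucleic acid, was called higher, as were 11.2% of all genes tested. It had 5.32 and 5.42 on MaR1 arrays and 5.10 and 5.07 on Veh arrays, a difference of 0.28 ± 0.06 (adjusted p 0.0440), and lost the call in 9 of the 12 other settings, those with quantile normalization, with the mean of its probes and without each array among them. Ifih1, the sensor of long viral RNA known as MDA5, had 3.12 and 3.18 on MaR1 arrays and 2.90 and 2.93 on Veh arrays, a difference of 0.24 (adjusted p 0.0547). Ddx58, which encodes RIG-I, had 0.07 (0.389), while its dimmer probes gave -0.12, -0.17 and -0.06. Its regulator Dhx58 had 0.02 (0.825). Ifi205, a member of the DNA-binding HIN family, had 0.14 (0.136), and 0.66 at its dimmer probe (adjusted p 0.00638 over all probes). Over the members' 23 other kept probes, 11 gave a difference above that of the gene's brightest probe and 12 one below it.

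The wider interferon pathway was described through 163 further genes, of which 139 were tested, 36 rose and 8 fell. Their median difference was 0.08. Over all genes tested 11.2% were called higher and 12.7% lower, and these shares belong beside the counts of each list below. The ligand genes are given first. Ifng, which encodes interferon gamma and is made mainly by T and NK cells, had log2 levels of 1.39 and 1.49 on MaR1 arrays and -0.09 and -0.02 on Veh arrays, a difference of 1.50 ± 0.07 (2.83-fold, adjusted p 0.00236). Ifnb1, the interferon beta gene, had 0.10 and 0.24 on MaR1 arrays and -1.10 and -1.08 on Veh arrays, a difference of 1.26 ± 0.07 (2.39-fold, adjusted p 0.00305). Both stayed called without any 1 array, with an adjusted p of at most 0.0255.

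The other ligand genes gave 1 call. Ifnl3 had a difference of 0.23 (adjusted p 0.0470) and lost its call without each array. Of the interferon alpha genes, Ifna1, Ifna2, Ifna5, Ifna9, Ifna13, Ifna14 and Ifnab were tested and none was called, with differences of -0.14 to 0.34 and adjusted p of 0.0705 to 0.944. Ifna13 was not well above background on either Veh array. Ifna4, Ifna7, Ifna11, Ifna12, Ifna15, Ifna16, Ifne and Ifnk did not pass the filter on dim probes, and Ifna6, Ifnl2 and Ifnz are not analysed here. The interferon alpha genes are near-identical copies, so their probes may not tell them apart.

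Of the other receptor chains and Janus kinases, 2 of 4 rose. Jak2, the kinase bound to IFNGR2, had 3.17 and 3.18 on MaR1 arrays and 2.48 and 2.50 on Veh arrays, a difference of 0.68 ± 0.05 (adjusted p 0.00544). Il10rb, the shared chain of the lambda interferon receptor, had 0.24 (adjusted p 0.0487).

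Among 11 other STAT and IRF family genes, 4 rose and 1 fell. Irf4, a factor of activated macrophages and dendritic cells, had 0.62 and 0.85 on MaR1 arrays and -1.18 and -1.04 on Veh arrays, a difference of 1.85 ± 0.11 (adjusted p 0.00316). Irf8, a factor of the macrophage and dendritic cell lineages, had 5.92 and 6.04 on MaR1 arrays and 5.38 and 5.42 on Veh arrays, a difference of 0.58 ± 0.07 (adjusted p 0.0113). Both are also expressed in dendritic cells, whose markers were higher in MaR1 cultures, and the part of such cells was not tested. Stat4 had 0.38 (adjusted p 0.0348), Stat5a 0.34 (0.0446), and the corepressor gene Irf2bp2 fell by 0.39 (0.0431).

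Of 13 genes that induce interferon, 1 rose and 1 fell, against 11.2% and 12.7% of all genes tested. Sting1, the adaptor of cytosolic DNA sensing, had a difference of 0.52 ± 0.06 (adjusted p 0.0104). Mavs, the adaptor of RIG-I and MDA5, fell by 0.30 (adjusted p 0.0313).

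Negative regulators of JAK and STAT signalling held 3 genes that rose and 2 that fell, of 10, against 11.2% and 12.7% of all genes tested. Socs1, the suppressor that binds the receptor-kinase complex, had 3.10 and 3.20 on MaR1 arrays and 1.70 and 1.95 on Veh arrays, a difference of 1.33 ± 0.11 (2.51-fold, adjusted p 0.00565). Socs3 had 5.84 and 5.89 on MaR1 arrays and 4.86 and 4.91 on Veh arrays, a difference of 0.98 ± 0.06 (adjusted p 0.00338). Ptpn2, a phosphatase that acts on Janus kinases, had 0.76 ± 0.06 (adjusted p 0.00570). These 3 stayed called without any 1 array. Pias3 fell by 0.32 (adjusted p 0.0359) and Ptpn6 by 0.27 (0.0423).

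**Figure D4:**
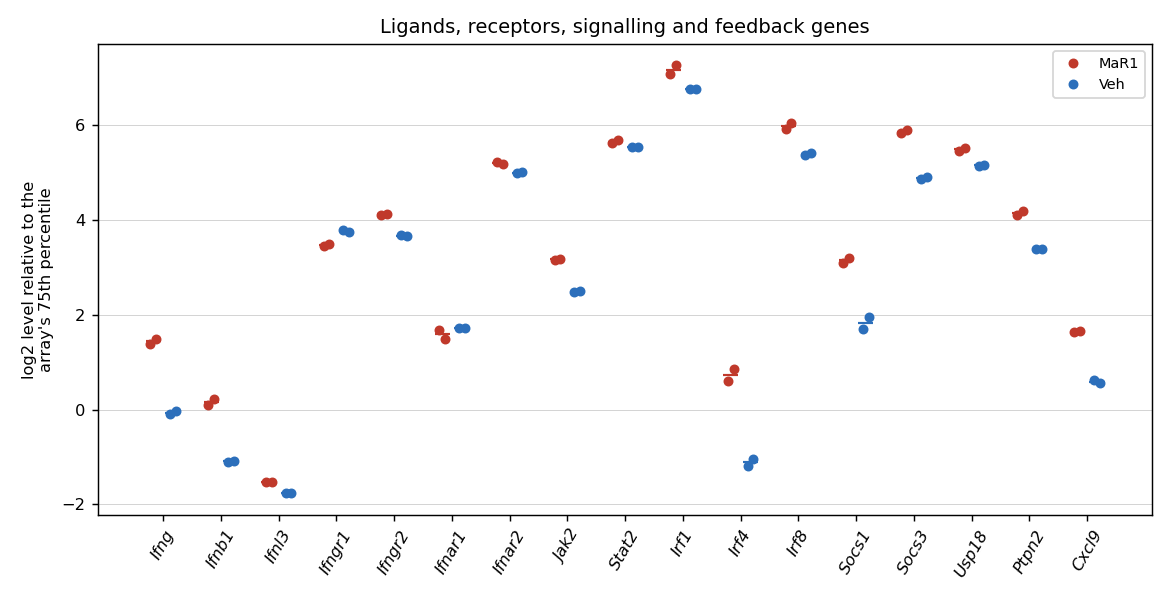
Log2 level relative to the 75th percentile of the array (y axis) of ligand, receptor, signalling and feedback genes (x axis), with a point for each of the 2 MaR1 arrays (red, left) and 2 Veh arrays (blue, right) and a line at each mean. Ifng, Ifnb1, Jak2, Irf4, Socs1, Socs3, Ptpn2 and Cxcl9 are higher in MaR1 by 0.68 to 1.85, Ifngr1 is lower by 0.30, and Ifnar1 differs by -0.13 with no call; levels of different genes have no order.

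Further gamma-type genes outside the member list were chosen, like the members, with earlier results of these data known. Their counts describe the list and do not test it. Of these genes 11 of 17 were higher and 0 lower, with a median difference of 0.40. The 6 with the smallest p were Cd40, a costimulatory receptor gene, at 0.90 (adjusted p 0.00425), Gbp4 at 0.81 (0.00967), the tryptophanyl-tRNA synthetase gene Wars at 0.41 (0.0177), Gbp2b at 0.50 (0.0179), Gm4951 at 0.47 (0.0180) and Ciita, the master activator of MHC class II genes, at 0.48 (0.0184). Cd40 and Gbp4 stayed called without any 1 array. Tgtp2, a near copy of the unmeasured Tgtp1, had 0.28 (0.0413). Cd40 and Ciita are also expressed in dendritic cells and B cells.

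Of 75 other interferon-stimulated genes tested, 12 rose and 4 fell, with a median of 0.06. Of all genes tested 11.2% rose and 12.7% fell, with a median of -0.02. In the members' range of level 13.5% rose and 7.02% fell, with a median of 0.06. Cxcl9, the interferon gamma-induced chemokine, had 1.65 and 1.65 on MaR1 arrays and 0.63 and 0.56 on Veh arrays, a difference of 1.06 ± 0.06 (adjusted p 0.00301). Cd69 (0.89, adjusted p 0.00469), Fgl2 (0.73, 0.00743), Casp4 (0.45, 0.0123), Ifi209 (0.47, 0.0134) and Pml (0.42, 0.0154) followed. Ifitm6 had -0.72 and -0.87 on MaR1 arrays and 0.87 and 0.79 on Veh arrays, and fell by 1.63 (adjusted p 0.00263). Ifit1bl1 fell by 0.39 (0.0179), Ifit3b by 0.36 (0.0185) and Trim30b by 0.33 (0.0249). Ifit3b is a near copy of the member Ifit3, and whether their probes tell them apart was not tested.

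**Figure D5:**
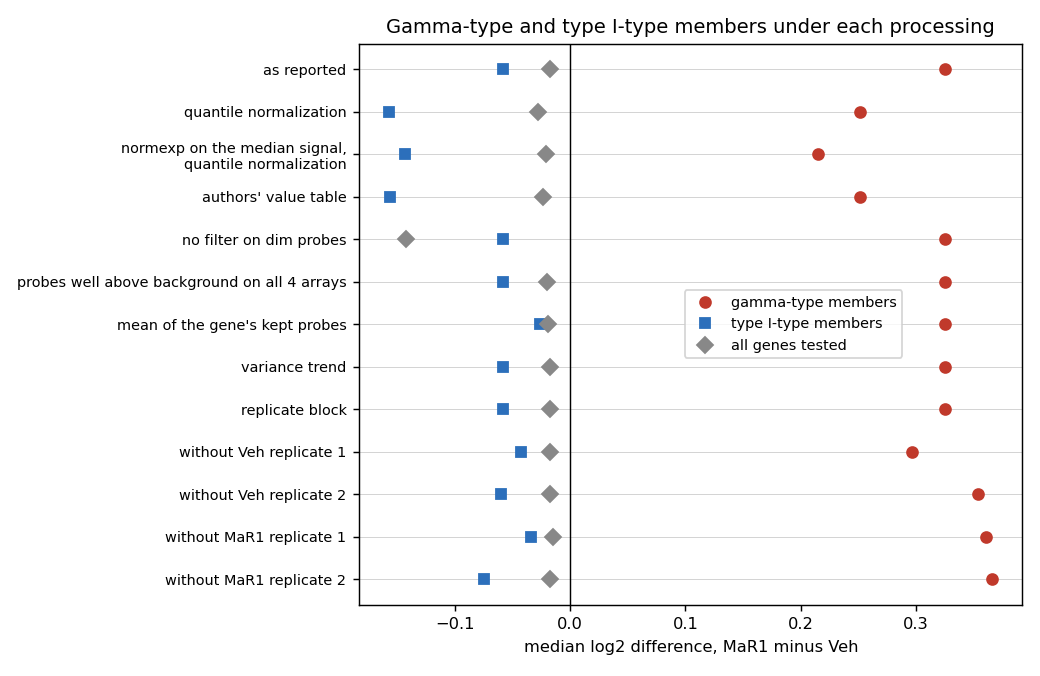
Median log2 difference, MaR1 minus Veh (x axis), of the 9 gamma-type members (red circles), the 8 type I-type members (blue squares) and all genes tested (grey diamonds) as reported and under each other processing (y axis). The gamma-type median lies between 0.22 and 0.37 in every setting drawn and the type I-type median between -0.16 and -0.03.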

How the data were processed

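Total RNA of 4 Kupffer cell samples was read with 1 dye (Cy3) on Agilent expression arrays. The deposited scanner output holds linear intensity values, which the authors extracted with Agilent Feature Extraction 11.0.1.1, per the submitters' processing notes. Per the file headers, background was subtracted within each array. The authors' deposited value table holds log2 values. Its scale and direction were found from the values: they follow the processed signal (r of at least 0.999996), and sorted columns differ by at most 0.00217, as after quantile normalization. Its column medians were 9.07. It was used as an alternative. No column of another sample was met (0).

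Values were log2 of the processed signal minus that of the array's 75th percentile over the 59305 non-control spots. Spots marked as outliers were left out, which removed a value in 17 genes and in no member. Spots of a probe were averaged. Probes were kept where the scanner output marks them well above background on both arrays of a group (31128 of 56605). RefSeq accessions named 32994 probes (58.3%) through a RefSeq gene table (GRCm38.p6), from which names and neighbours were taken. Each gene was read at its brightest kept probe; the members had 70 probes, and 19 members had several. The 24067 genes were fitted in R 4.3.3 by lmFit and eBayes from limma 3.58.1 (two-sided p, adjusted by Benjamini-Hochberg over every gene fitted, threshold 0.05, no replicate term, prior SD 0.0738 with 2.27 prior degrees of freedom). Precision is limited by having 2 arrays a group. The fit was tested on simulated data. Promoter windows were scanned in Python 3.11.15, and figures drawn with matplotlib 3.10.9. Every member was named; of the further pathway genes those called were named, at most 6 a list and direction with the smallest p, with every ligand gene; 1 further gene of this rule is not reported here. The members, the pathway lists and the marker lists were chosen with earlier results of these data known. Normexp correction was planned on the mean spot signal and run on the median, with an offset of 50. The alternatives were 3 other scalings or sources, 2 filters, the mean of probes, every probe on its own, a variance trend, a replicate block and leaving out each array. Replicate numbers showed no visible pairing: the deviations of the first replicates from their group means correlated with r = -0.03 over 24050 genes. With 2 arrays a group this cannot exclude a shared animal or preparation, and the labels do not say what a number marks.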

Additional observations from a re-analysis of the deposited data

How the results depend on the processing

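Calls depended on the processing more than directions did. Of 564 member values recomputed under 12 settings, 418 kept direction and side of the threshold, 87 lost a call, 26 gained one and 33 changed sign; every change of sign was of a member with no call as reported. Among 23 other kept probes of the members, 8 kept both, 2 lost the call, 3 gained one and 10 changed sign. The cause of these changes was not tested.

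With quantile normalization 6 members were higher and 2 lower, type I-type members had 0 higher and 1 lower, and the medians were -0.16 (type I-type), 0.25 (gamma-type), 0.0341 (members) and -0.0282 (all genes). The authors' value table, in which 22906 genes could be tested, gave 6, 2, 0 and 1 for the same counts, medians of -0.16, 0.25, 0.0354 and -0.0239, and 13 other pathway genes lower. Normexp with quantile normalization gave 5 members lower, 2 of them type I-type, medians of -0.14, 0.22, 0.0431 and -0.0206, and 24 other pathway genes lower. With no filter on dim probes, 45616 genes were tested: 1087 were higher and 972 lower, with 2 members higher, 0 lower, 0 type I-type and 1 gamma-type higher, 16 other pathway genes higher and 3 lower, and a median of all genes of -0.14, which the added dim genes set while each member's difference stayed as it was. Probes well above background on all 4 arrays gave a median of all genes of -0.0199. The mean of a gene's probes gave medians of -0.0257 (type I-type) and -0.0193 (all genes). A variance trend gave 4524 genes higher and 4672 lower, 23 members higher and 4 lower, 1 type I-type member lower, and 55 other pathway genes higher and 22 lower.

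With the replicate block, 1766 genes were higher and 1926 lower, and 6 members were higher and 0 lower. In that setting 0 type I-type members were higher and 3 other pathway genes lower. Whether the numbers pair the arrays is not given in the labels. Without each array in turn (the lone array assumed to vary like the other group), genes higher ranged from 1011 to 1336 and genes lower from 916 to 1489. Members higher ranged from 0 (without Veh replicate 1) to 3 (without MaR1 replicate 1), with 0 lower in each. Type I-type members higher were 0 in each, gamma-type members higher 0 to 1, other pathway genes higher 12 to 17 and lower 1 to 2. Medians ranged from -0.0752 to -0.0337 (type I-type), 0.30 to 0.37 (gamma-type), 0.0922 to 0.15 (members) and -0.0174 to -0.015 (all genes).

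Signs changed as follows. With quantile normalization the values were Stat2 -0.00141, Ddx58 -0.0159, Dhx58 -0.0598, Isg15 -0.0601, Rtp4 -0.0622, Trim30a -0.029 and Parp14 -0.0125. In the authors' value table they were Stat2 -0.000272, Ddx58 -0.014, Dhx58 -0.059, Isg15 -0.0602, Rtp4 -0.0623, Trim30a -0.0271 and Parp14 -0.0114. With normexp they were Irf7 -0.0341, Ddx58 -0.00228, Dhx58 -0.0624, Isg15 -0.0169, Rtp4 -0.0766, Trim30a -0.0758 and Parp14 -0.0744. With the mean of probes they were Ifnar1 0.17, Irf9 0.0331, Ddx58 -0.0695, Oasl1 0.0334 and Xaf1 -0.0373. Without each array in turn the ranges that crossed 0 were -0.0280 to 0.0156 for Irf9, -0.0136 to 0.0488 for Irf7, -0.0177 to 0.00145 for Oas1a, with 0.000601 without Veh replicate 2, -0.000409 to 0.14 for Ifi44, -0.00313 to 0.0416 for Dhx58 and -0.0619 to 0.13 for Rtp4. Other single probes gave Irf9 0.0725, Ifnar1 0.25 and 0.37, Ddx58 -0.12, -0.17 and -0.0571, Oasl1 0.24, Parp14 -0.0937, Xaf1 -0.19 and Stat2 -0.11.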

Other observations

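Markers of 4 further liver and blood cell types were measured. The summed level, relative to the 75th percentile, of 9 hepatocyte markers was 21.5 and 21.2 on MaR1 arrays and 26.3 and 24.7 on Veh arrays, with 1 of 9 lower (Ttr). That of 8 stellate cell markers was 39.5 and 38.5 on MaR1 arrays and 41.9 and 41.8 on Veh arrays, with 3 lower (Hgf, Reln and Dcn). That of 7 neutrophil markers was 44.1 and 40.3 on MaR1 arrays and 45.0 and 46.6 on Veh arrays, with 0 called by limma and 0 at an unadjusted p under 0.05. Of 9 endothelial cell markers, 3 were higher (Pecam1, Stab2 and Cdh5) and 1 lower (Bmp2).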
